A study of Dicentrarchus labrax with 35 samples.

Results

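This account follows the gonads of European sea bass that grew fast early in life and were then slowed by restricted food (group FS, sampled at T2), set against the gonads of the fast growers from which they were drawn (group F, sampled at T1). They are 12 of the 35 gonads of the series, 5 FS and 7 F, chosen by their sample titles, and all 24200 sea bass probes of the array, which bind 11705 target sequences, were used. FS fish were graded as fast growing before sex differentiation, were given a reduced ration in fewer meals from T1 onwards, and were sampled as testes at 332 days post fertilization. F fish were the fastest growers of the same population, had shared the feeding of the slow growers, and were sampled as sexually undifferentiated gonads at 133 days post fertilization. For comparison, SS fish (5) grew slowly throughout and were given the same reduced ration as FS from T1 onwards. SF fish (5) started slowly and FF fish (5) grew fast throughout, and both were fed freely in more meals from T1 onwards. S fish (8) were the slow growers at T1. FF, SF and SS are T2 testes from fish of the same age as FS. Each T2 group was kept in a tank of its own, and the testes of T2 held no spermatozoa. Only males were used at T2, while the sex that an F gonad would have taken is not known. FS and F therefore differ in age, in sexual stage, in food and in tank at the same time, and their arrays were scanned on different days and lay on different slides, so that these cannot be told apart.

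The sea bass gonad begins as a paired ridge of primordial germ cells and somatic cells that is alike in both sexes. In males it then becomes a testis, in which germ cells lie within cysts of Sertoli cells and steroid-producing Leydig cells lie between them. Larger juveniles of this species more often become females, and the study varied the food supply around the time of sex differentiation. The labels call the FS samples testis and the F samples undifferentiated gonads. The files carry no gene names, and 0 of the 24200 probe names and 0 of the 11705 target names matched the RefSeq table of 30274 sea bass genes, so that marker genes of the testis or of any other tissue could not be looked up and the labelled tissue was not checked. Probe sequences are not printed here for the same lack of a source.

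Each gonad was hybridised to a one-colour array, which reports the brightness of a spot for each probe. Arrays have no depth of counting, so that the number of arrays limits the precision. The share of spots well above background was 71.8 to 85.3% on FS arrays and 43.2 to 71.5% on F arrays, so that dim probes were measured less well in F. All F arrays were scanned on the second day and lay on slides 7 and 8, and all FS arrays were scanned on the first day and lay on slides 3 (FS1 to FS4) and 4 (FS5). Levels are given below as log2 of the background-corrected and quantile normalized signal, a scale on which 1 unit is a doubling.

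The gonadal transcriptome of FS differed from that of F over a large part of the array. A probe was called when its fold change was at least 1.5 and its Benjamini-Hochberg adjusted p in limma was under 0.01. In FS vs. F, 5082 of 24200 probes were called, or 21% of those tested, with 2874 higher in FS (11.9%) and 2208 lower in FS (9.12%). The median log2 change was 1.13 among the probes called higher and -1.38 among those called lower. In whole gonads, fewer cells of a type and less RNA per cell cannot be told apart. The Euclidean distance between the mean profiles of FS and F over 24113 probes was 141.8, and none of the 792 divisions of the 12 arrays into 5 and 7 gave a larger one (exact permutation test of a distance, which has no sign, p = 0.0013, the smallest this design allows). A probe's groups did not overlap, with all FS arrays on one side of all F arrays, at 5631 probes (23.3%), with FS above at 3099 (12.8%) and below at 2532 (10.5%), and with median centring in place of quantile normalization at 1567 probes. Of the 5082 calls, 3914 also had groups that did not overlap. The balance of the calls differed between scalings. Calls higher in FS made up 56.6% of all calls, against 39.6% of 8092 calls when the processed signal was scaled to the 75th percentile. That scaling moved the median change over all probes to -0.37. The share was 36.8% of 829 calls when arrays were centred on their median in place of quantile normalization. The mean background fitted before this centring ran from -826 (FS4) to 31.2 (FS5) in FS and from -550 (F5) to 20.6 (F3) in F. Its part in the median-centred counts was not tested.

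Calls grew fewer with size more slowly among the probes that were lower in FS. At least 2-fold, 1754 called probes were higher and 1648 lower in FS. At least 4-fold there were 259 higher and 598 lower, at least 8-fold 35 higher and 206 lower, and at least 16-fold 3 higher and 59 lower. Called or not, 59 probes were at least 8-fold higher and 244 lower, and 16 were at least 16-fold higher and 68 lower. The imbalance was thus smaller over all probes than among the calls. The 206 probes at least 8-fold lower belonged to 106 targets, and their median level was 9.20 in FS and 13.27 in F. The 35 probes at least 8-fold higher belonged to 20 targets, and their median level was 12.80 in FS and 9.61 in F. All 206 were well above background on every F array, and 161 of them were so on every FS array too. Over the settings of background correction and scaling, the number at least 8-fold lower ran from 171 to 1265 and the number at least 8-fold higher from 24 to 437, and in each of these settings more probes were lower than higher.

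Some calls rested on a group that did not rise above background. Of the probes called higher in FS, 161 were not well above background on any F array, and of those called lower, 32 were not so on any FS array. For these the change is only a lower bound, taken as the mean of the bright group against, for each dim array, the higher of the probe's own signal and the lowest signal well above background on that array. For the 161 probes the bound had a median of 1.90-fold, 64 of them were at least 2-fold and 7 at least 4-fold higher, and the highest was at least 5.41-fold. For the 32 probes the bound had a median of 1.81-fold, 12 were at least 2-fold and 4 at least 4-fold lower in FS, and the highest was at least 38.6-fold. Calls were spread unevenly over brightness. Of the 2420 dimmest probes, by mean level over the 12 arrays, 0 were called, and of the 2420 brightest 18.6% were called higher and 16.5% lower.

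Different probes of one target mostly moved the same way. Of 6266 targets with at least 2 probes, 78.7% had log2 changes of 1 sign, and of the 1823 of these with at least 1 called probe 96.8% did. Every probe was called in 980 targets, and 3 targets had probes called in opposite directions. Counted by target, 2746 had at least 1 called probe, of which 1425 had one called higher and 1324 one called lower in FS.

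Large changes are shown by 4 probes, the pair with the largest rise and the pair with the largest fall under a rule. The rule took called probes whose groups did not overlap and that were well above background on at least 1 array of each group. Of 16 probes at least 16-fold higher in the FS mean, 3 were called, so that rises in part of the FS gonads could be left out. At 2 probes not among the 4, FS2 lay at least 7.5 and FS4 at least 7.75 log2 units above the F mean. At every probe where FS2 lay at least 7.5 above the F mean, FS3 lay within 1 unit of that mean. Each of the 4 probes comes from a different target, so that further probes of a target already named were passed over. What these targets encode is not given in the files. Probe CUST_14589_PI416070213 (target cDN27P0007K09.F.ab1) fell furthest. Its level was 9.07 (FS1), 9.17 (FS2), 9.08 (FS3), 9.25 (FS4) and 10.12 (FS5), against a lowest of 17.16, a median of 17.79 and a highest of 18.50 in the 7 F gonads. All FS gonads were low and all F gonads high, with a wide empty interval between them. The mean was 9.34 ± 0.44 in FS (SD, n = 5) and 17.86 ± 0.46 in F (SD, n = 7), a log2 change of -8.52 (SE 0.25, limma adjusted p = 4.32e-09). The other 2 probes of this target changed by -8.51 and -8.11 and were both called.

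Probe CUST_4498_PI415922062 (target cDN31P0003N22.F.ab1) had the next largest fitted fall among probes of other targets. Its level was 8.32 (FS1), 8.16 (FS2), 8.12 (FS3), 8.25 (FS4) and 8.14 (FS5), against a lowest of 15.97, a median of 16.51 and a highest of 17.18 in F. It was well above background on only 2 of the 5 FS arrays, so that its FS level was near the lowest the arrays could measure. The mean was 8.20 ± 0.09 in FS (SD, n = 5) and 16.49 ± 0.40 in F (SD, n = 7), a log2 change of -8.29 (SE 0.18, limma adjusted p = 3.73e-10). The size of this change, and its SE, thus rested on an FS level that was not well above background on 3 of the 5 arrays.

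Probe CUST_3784_PI415922062 (target cDN30P0001A07.F.ab1) had the largest fitted rise among the probes that met the rule. Its level was 11.77 (FS1), 12.04 (FS2), 14.09 (FS3), 12.15 (FS4) and 13.21 (FS5), against a lowest of 7.89, a median of 7.95 and a highest of 9.12 in F. FS3 and FS5 were highest, and the highest F gonad, F3, was the only F array on which the probe was well above background. The mean was 12.65 ± 0.97 in FS (SD, n = 5) and 8.12 ± 0.45 in F (SD, n = 7), a log2 change of 4.54 (SE 0.39, limma adjusted p = 9.89e-06). Since 6 of the 7 F arrays were not well above background, the size of this change was set in part by the lowest level the arrays could measure.

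Probe CUST_6479_PI415922062 (target SeabassC-CL3438Contig1) rose with a wider spread. Its level was 14.70 (FS1), 14.49 (FS2), 12.97 (FS3), 15.01 (FS4) and 12.88 (FS5), against a lowest of 8.80, a median of 9.38 and a highest of 12.59 in F. FS3 and FS5 were the lowest FS gonads here, and the highest F gonad, again F3, came close to them. The mean was 14.01 ± 1.01 in FS (SD, n = 5) and 9.78 ± 1.28 in F (SD, n = 7), a log2 change of 4.23 (SE 0.64, limma adjusted p = 0.000454). The call was lost without FS1, FS2 and FS4, with a change of 3.15 and an adjusted p of 0.0319.

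**Figure D1:**
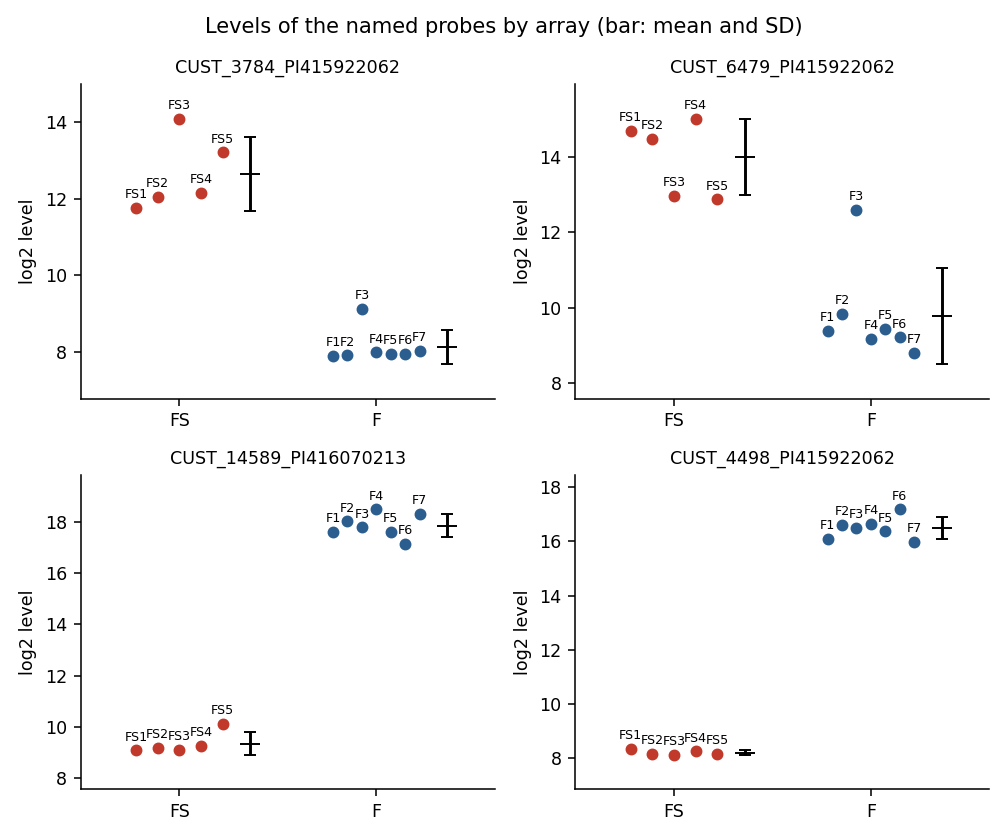
Levels (log2, background-corrected and quantile normalized) of the 4 probes named above, each from a different target, 1 point per gonad, in 5 FS gonads (red, left) and 7 F gonads (blue, right), with the mean and SD as a bar beside each group. FS and F do not overlap in any panel, and F3 lies nearest to FS in both probes that rose.

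All 4 probes moved with age in the other groups too. Probe CUST_14589_PI416070213 averaged 9.34 ± 0.45 in SF and 9.84 ± 0.63 in SS (SD, n = 5 each), against 17.48 ± 0.43 in S (SD, n = 8). Probe CUST_4498_PI415922062 averaged 8.25 ± 0.12 in SF and 8.54 ± 0.37 in SS, against 15.24 ± 1.96 in S. Probe CUST_3784_PI415922062 averaged 14.33 ± 0.81 in SF and 14.21 ± 0.74 in SS, against 8.07 ± 0.14 in S. Probe CUST_6479_PI415922062 averaged 12.91 ± 0.33 in SF and 13.25 ± 0.44 in SS, against 9.46 ± 0.55 in S. None of them passed the test of a difference between the age changes, in which the smallest adjusted p was 0.0381, for CUST_3784_PI415922062.

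The 5 FS gonads did not change by the same amount. The difference of each FS array from the mean of the 7 F arrays had an SD over probes of 1.11 (FS1), 1.19 (FS2), 0.85 (FS3), 1.20 (FS4) and 0.75 (FS5). The difference of each F array from the mean of the other F arrays had an SD with a lowest of 0.38, a median of 0.44 and a highest, in F7, of 0.74. At least 2-fold differences were seen at 26.1% of probes or 6317 (FS1), 28.9% or 6990 (FS2), 16.2% or 3929 (FS3), 29.1% or 7050 (FS4) and 12.6% or 3056 (FS5). The F arrays had a lowest of 601, a median of 811 and a highest, in F7, of 2104 such probes. FS1, FS2 and FS4 thus lay farthest from F, FS3 and FS5 lay nearer, and every FS array had more such probes than any F array. This order changed with median centring in place of quantile normalization. The SD was then 1.35 (FS1), 1.13 (FS2), 0.90 (FS3), 1.16 (FS4) and 1.11 (FS5), with FS5 close to FS2 and FS4. The mean background fitted in the background correction was uneven, at 28.2 (FS1), -752 (FS2), -672 (FS3), -826 (FS4) and 31.2 (FS5). The part of this fit in the changed order was not tested. In each FS array the probes at least 2-fold above and below the F mean were about equally many, for example 3465 above and 3585 below in FS4, and 1538 above and 1518 below in FS5. Quantile normalization gives all arrays the same distribution of levels, and its part in this balance was not tested.

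**Figure D2:**
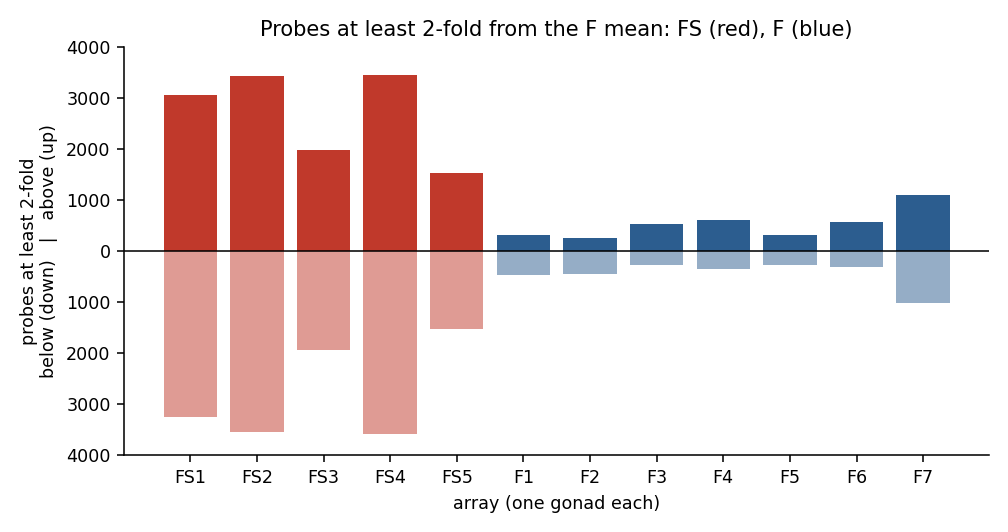
Number of probes at least 2-fold above (solid bars, upwards) and at least 2-fold below (pale bars, downwards) the F mean on each array, for FS (red, left) and F (blue, right), with each F array set against the mean of the other F arrays. FS1, FS2 and FS4 reach 6317 to 7050 probes in all, FS3 3929 and FS5 3056, and F7 has the most among F arrays with 2104.

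FS1, FS2 and FS4 were close to each other, and so were FS3 and FS5. The levels of FS3 and FS5 correlated across probes with a Pearson's r of 0.9777. Each of them had a higher r with a T2 testis outside FS, at 0.9846 (FS3) and 0.9854 (FS5, with SF2). The number of probes at least 2-fold apart was 185 between FS1 and FS2, 211 between FS1 and FS4, 128 between FS2 and FS4 and 471 between FS3 and FS5. In the 6 other pairs of FS arrays it was 4458 to 5443. Between pairs of F arrays it ran from 430, between F1 and F2, to 3400, between F6 and F7. FS1 to FS4 shared slide 3, and FS5 lay on slide 4, as did SF2. The part of the slide in these likenesses was not tested. The spike-in RNA of the labelling kit, relative to the array's 75th percentile, ran from -1.75 to 0.50 on FS arrays and from -1.69 to 1.15 on F arrays on the log2 scale.

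**Figure D3:**
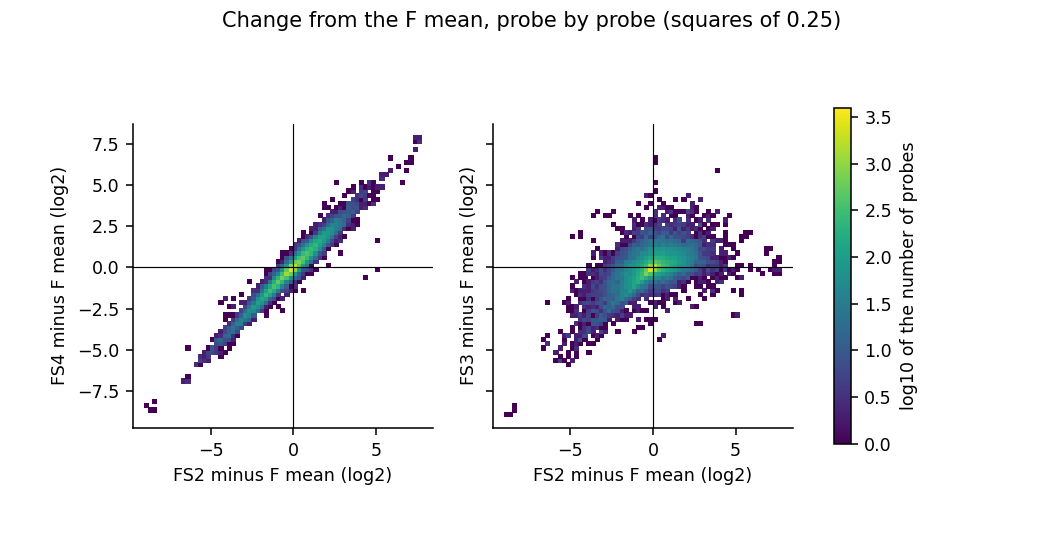
Change from the F mean (log2) of every probe in FS2 (horizontal) against FS4 (left panel) and against FS3 (right panel), drawn as squares of 0.25 log2 units coloured by the log10 of the number of probes. FS2 and FS4, with 128 probes at least 2-fold apart, lie along the diagonal, and FS2 and FS3, with 5167, spread away from it.

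Of 24113 probes measured on all 12 arrays, 3085 had all 5 FS arrays above the whole F range and 2524 had all 5 below it. FS1, FS2 and FS4, but neither FS3 nor FS5, lay above it at 2163 probes and below it at 2194. FS3 and FS5, but none of FS1, FS2 and FS4, lay above it at 1307 probes and below it at 597. At 2345 probes 1 FS array or more lay above the F range and 1 or more below it. None of these was called, although 320 of them differed by at least 1.5-fold in the mean, and at 273 probes 1 FS array was at least 2-fold above the F mean and another at least 2-fold below it. In the probes at least 1.5-fold different and not called (3779), the median SD was 0.67 in FS and 0.47 in F, and in the probes under 1.5-fold different it was 0.16 in FS and 0.19 in F. A wide spread within a group works against a call, so that these values of uncalled probes are a description.

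At the called probes the FS gonads moved the same way. In each FS array, 5077 to 5079 of the 5082 called probes lay on the called side of the F mean, which is a description, since the calls were made on these arrays. The size differed more than the direction. The median change at the probes called higher was 1.29 (FS1), 1.36 (FS2), 0.84 (FS3), 1.39 (FS4) and 0.74 (FS5). At the probes called lower it was -1.57 (FS1), -1.63 (FS2), -1.10 (FS3), -1.66 (FS4) and -0.96 (FS5). FS3 and FS5 again changed least. Of the 2874 probes called higher, 2461 (FS5) to 2839 (FS1) lay above the whole F range in single FS arrays, and of the 2208 called lower, 1802 (FS5) to 2187 (FS2 and FS4) lay below it. At the probes called higher the SD between gonads had a median of 0.42 in FS and 0.22 in F, and it was the larger one in FS at 81.8% of them. At those called lower the median SD was 0.34 in FS and 0.42 in F, and it was larger in FS at 39.9%.

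Without FS1, FS2 and FS4, 2356 probes were called, 1664 of which were among the 5082, and 75.6% of them were higher in FS. Without FS3 and FS5, 8221 were called, 4690 of which were among the 5082, and 57.3% of them were higher. These counts are a description, since the arrays left out together were those alike in their own values. Leaving out unlike arrays lowers the spread within FS, which by itself allows more calls.

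The age change of initially slow fish gave a scale that used no FS or F array. The line from the mean of S (position 0) to the mean of SF and SS (position 1) was taken over 24035 probes, and each FS and F gonad was placed along it by projection. FS1 lay at 0.92, FS2 at 0.95, FS3 at 0.99, FS4 at 0.94 and FS5 at 0.86, against a lowest of 0.03, a median of 0.09 and a highest of 0.20 in F. The mean was 0.93 ± 0.05 in FS (SD, n = 5) and 0.11 ± 0.07 in F (SD, n = 7), a difference of 0.83 (two-sided exact permutation test over 792 divisions, p = 0.0013, the smallest this design allows). All FS gonads had thus come most of the way along the age axis of slow starters. Their distance from this axis differed far more. It was 127.8 (FS1), 141.6 (FS2), 45.9 (FS3), 142.2 (FS4) and 47.6 (FS5), against 64.9 to 105.3 in F. The mean was 101.01 ± 49.9 in FS and 79.01 ± 14.5 in F, which did not pass the test (two-sided exact permutation test, p = 0.28). FS3 and FS5 were nearer to the axis than any F gonad, and FS1, FS2 and FS4 farther from it than any. The axis from position 0 to 1 was 127.5 long in the same units, so that FS1, FS2 and FS4 lay farther from it than its length.

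**Figure D4:**
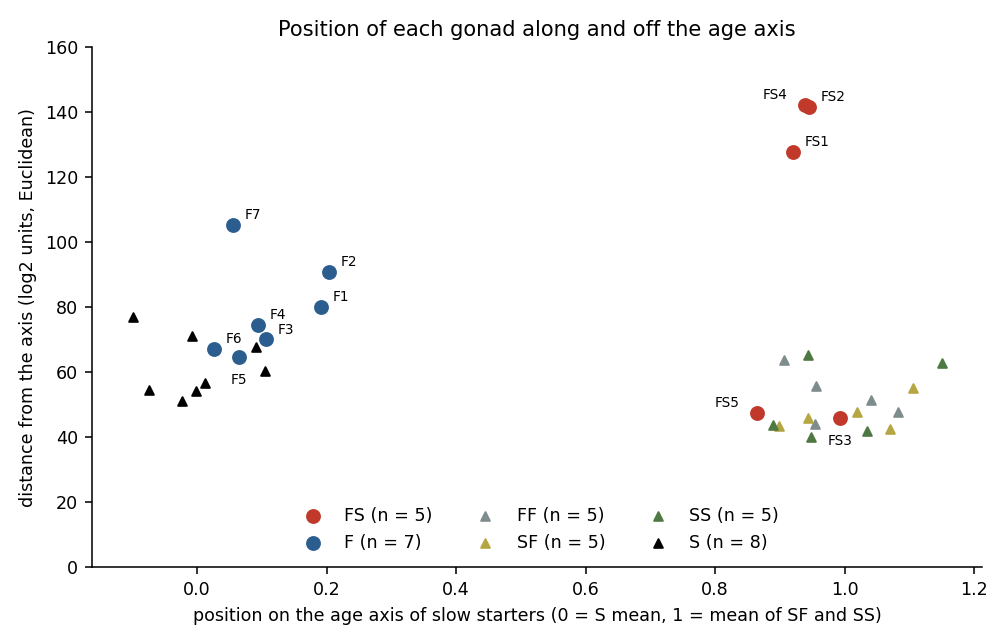
Position of each gonad on the age axis of slow starters (horizontal, 0 for the S mean and 1 for the mean of SF and SS) against its Euclidean distance from the axis in log2 units (vertical), for 5 FS (red circles), 7 F (blue circles) and the arrays of FF, SF, SS and S (triangles). FS lies at 0.86 to 0.99 and F at 0.03 to 0.20 along the axis, and FS1, FS2 and FS4 lie 127.8 to 142.2 away from it.

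The change of each FS gonad from the F mean was also set against the age changes of slow starters, probe by probe. Across probes, which are not independent replicates, Pearson's r with SS minus S was 0.58 (FS1), 0.55 (FS2), 0.84 (FS3), 0.55 (FS4) and 0.81 (FS5), and with SF minus S it was 0.60, 0.59, 0.86, 0.58 and 0.83 in the same gonads. All arrays were normalized together, which these values share. Of the 5082 calls of FS minus F, 1872 higher and 1144 lower ones were called the same way in SF minus S, or 59.3% of them and 56.6% of the 5327 probes (22%, with 14.4% positive and 7.63% negative) called in SF minus S. In SS minus S, where 4832 probes (20%) were called, 12.3% positive and 7.68% negative, 1637 higher and 1118 lower ones were shared, or 54.2% of the calls of FS minus F and 57.0% of its own. No probe was called in opposite directions in either case. Each of the called probes at least 8-fold changed in FS minus F (35 higher and 206 lower) had the same sign in SF minus S and in SS minus S. Of the 206 that were lower in FS, 188 were called lower in SF minus S, with a median change of -2.91 there, and 181 in SS minus S, with a median of -2.88. Of the 35 that were higher, 35 were called higher in SF minus S, with a median of 2.31, and 32 in SS minus S, with a median of 2.08. FF minus F, which shares the F arrays with FS minus F, gave 4942 calls (20.4%), with 12.7% of probes higher and 7.69% lower at T2, and its median change was 0.80 at the probes called higher in FS and -1.08 at those called lower.

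Whether restricted food after T1 went with another age change in initially fast fish than in initially slow fish was examined with limma on the difference (FS minus F) minus (SS minus S). It called 108 of 24200 probes (0.446%), 60 of them positive (0.248%) and 48 negative (0.198%), with 6858 at an unadjusted p under 0.05. At the 60 positive probes, from 51 targets, the median change was 0.99 in FS minus F and -0.19 in SS minus S, and 36 had opposite signs in the age changes. Their median change from the F mean was 1.16 (FS1), 1.13 (FS2), 0.70 (FS3), 1.21 (FS4) and 0.61 (FS5), which is a description, since the calls were made on these arrays. At the 48 negative probes, from 42 targets, the median change was -0.03 in FS minus F and 1.25 in SS minus S. The spike-in RNA of the SS arrays was 3.08 to 5.56 above their 75th percentile on the log2 scale, higher than on any FS or F array, and its part in this contrast was not tested.

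The count of this contrast rested on single arrays. It was 24 without FS1, 29 without FS2, 24 without FS4, 1784 without FS3 and 1760 without FS5. Without 1 F array it was 45 (F1), 30 (F2), 100 (F3), 37 (F4), 32 (F5), 48 (F6) and 125 (F7). Without FS1, FS2 and FS4 together it was 5, and without FS3 and FS5 together 5238. These counts too are a description, since the arrays were set apart by their own values.

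The age changes of both switched groups were compared by (FS minus F) minus (SF minus S). It called 1 of 24200 probes (0.00413%), a negative one with a log2 change of -0.96 in FS minus F and 0.49 in SF minus S (limma adjusted p = 0.00639), with 6498 probes at an unadjusted p under 0.05. Without FS3 the count was 1296 and without FS5 1366. It was 0 without FS1, FS2, FS4, F1, F2, F4, F5 or F7, 2 without F3 and 1 without F6. Without FS3 and FS5 together it was 5250, again a description, since these gonads were set apart by their own values. A low count in the contrast of all 5 FS gonads therefore does not show that the age changes were alike.

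Target names begin with 1 of 14 prefixes, cDN22 to cDN35, or name a contig. What each prefix stands for is not given in the files. Probes of the prefix cDN23, singled out after its values were seen, were called higher in FS more often than the average probe. Of its 1095 probes from 367 targets, 21.6% were called higher in FS and 1.10% lower, against 11.9% and 9.12% of all probes, and their median log2 change was 0.35, against -0.0020 over all probes. The median change of the cDN23 probes was 0.41 (FS1), 0.53 (FS2), 0.08 (FS3), 0.53 (FS4) and 0.07 (FS5), so that most of the shift lay in FS1, FS2 and FS4. In the F arrays it lay between -0.06 and 0.04. At least 2-fold above the F mean were 26.4% of the cDN23 probes (FS1), 31.6% (FS2), 9.32% (FS3), 31.4% (FS4) and 6.67% (FS5), against 12.7% (FS1), 14.2% (FS2), 8.24% (FS3), 14.3% (FS4) and 6.36% (FS5) of all probes, so that FS3 and FS5 lay near the share of all probes. In SF minus S, 18.1% of the cDN23 probes were called as higher at T2 and 1.46% as lower, against 14.4% and 7.63% of all probes. In SS minus S, 16.4% were called higher and 1.64% lower, against 12.3% and 7.68% of all probes. The share called higher was larger still in cDN24 (20.1% in SF minus S and 16.5% in SS minus S) and in the contigs (20.1% and 16.7%). Their shares called lower were larger too, at 3.25% in each contrast for cDN24 and 9.52% and 10.4% for the contigs. With median centring in place of quantile normalization, 2.92% of the cDN23 probes were called higher, against 1.26% of all probes, and with the processed signal 29.3%, against 13.2%.

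The balance of calls differed among the other prefixes. Probes of cDN28 (1611) were called higher in FS at 4.28% and lower at 12.4%. Probes of cDN24 (891) were called higher at 15.9% and lower at 4.71%, and the contigs (7619) at 17.2% and 10.6%. In the other prefixes 6.52 to 11.8% were called higher and 6.05 to 10.8% lower. Of the 206 probes at least 8-fold lower in FS, which are 0.851% of all probes, 102 were contigs (1.34% of the contig probes), 18 came from cDN24 (2.02%), 18 from cDN28 (1.12%) and 0 from cDN23.

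**Figure D5:**
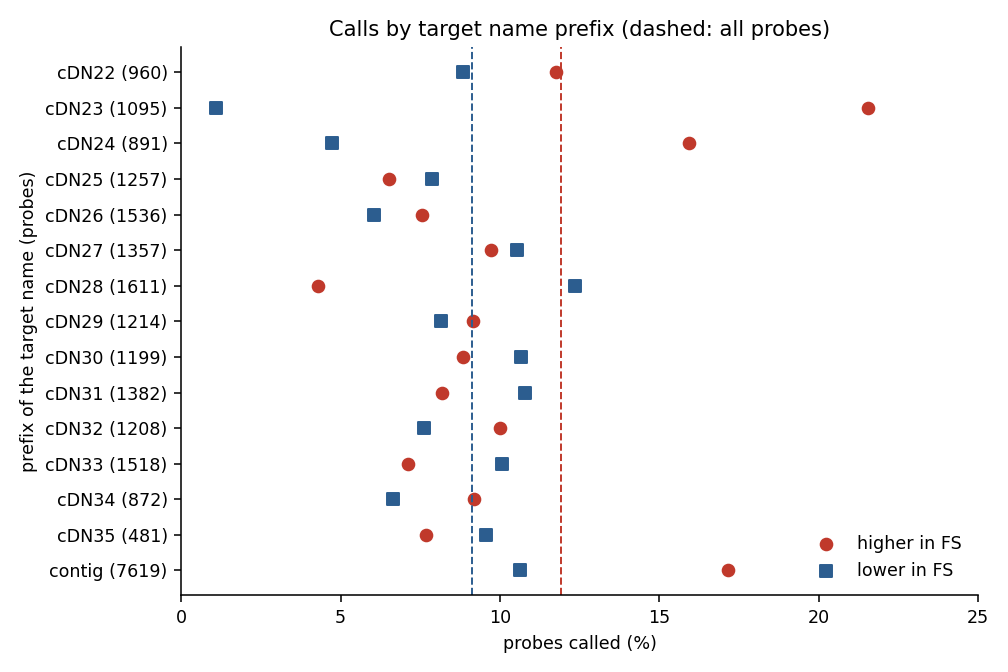
Share of probes called higher (red circles) and lower (blue squares) in FS vs. F, in percent, for each prefix of the target name, with the number of probes in brackets and the shares over all probes as dashed lines (11.9% higher and 9.12% lower). cDN23 has the highest share of higher calls (21.6%) and the lowest share of lower calls (1.10%), and cDN28 the highest share of lower calls (12.4%).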

How the data were processed

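Gonadal RNA of 35 fish was measured on one-colour Agilent arrays, 1 fish per array, and groups were taken from the sample labels. The authors deposited scanner output made with Agilent Feature Extraction (version 10.7.3.1 in the file headers), which holds the intensity of each spot and of its local background on a linear scale, without any scaling across arrays. A second deposited file holds log2 values per probe, made by normexp background correction and quantile normalization according to the study's methods, which was used as an alternative. Spot type, quality flags and other marks in the deposited scanner output were used to leave out control and flagged spots. Columns of per-sample values not mapped to a sample did not occur.

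Median foreground and background intensities were corrected by normexp (offset 50), the 43803 sea bass spots per array were quantile normalized over the 35 arrays and taken to log2, and the unflagged spots of a probe (1260 flagged spots on FS and F arrays were left out, 0 were saturated) were summarised by their median. A filter on reliable spots (foreground at least 2 times background on at least 50% of spots and arrays) removed no probe. FS and F were compared in R 4.3.3 by limma 3.58.1 (lmFit, eBayes), with tables read by the package data.table in version 1.17.8, with Benjamini-Hochberg adjustment over 24200 probes, a fold change of at least 1.5 and an adjusted p under 0.01, the thresholds of the study's methods. The fit held no covariate, since scan day and slide are confounded with group in FS and F. S1 to S4 were scanned on the second day and S5 to S8 on the first, as were all SF and SS arrays. The part of scan day in the differences of age changes and in the age axis was not tested. The differences of age changes were fitted on the 4 groups concerned. Distances and positions were tested by exact permutation. The fit was run on simulated data with independent normal values and 1 SD per probe shared by both groups. Arrays that resemble each other in sets, as those of FS do, were not simulated.

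The members, lists and tests were chosen with earlier results of these data known. Named probes followed a rule: among called probes with groups that did not overlap and well above background on at least 1 array of each group, the 2 largest rises and the 2 largest falls from different targets. Cell type markers could not be used without gene names. Alternatives were the processed signal scaled to the 75th percentile, other normexp settings, control spots kept, the matrix of the authors, normalization of F and FS alone, median centring, the mean of spots, filters on dim probes, all 6 groups in 1 fit, array weights, an intensity trend, slide or replicate number as a block, other thresholds, and arrays left out. Chosen after seeing the data were the alternatives for the age axis, the 8-fold calls and the cDN23 probes, and the age contrasts without FS1, FS2 and FS4 or without FS3 and FS5. Where labels and methods name other days for T2, the day of the labels is given. Samples of a group are separate fish, and the p-values set a difference between groups against the spread between fish. At T2 the fish of a group shared a tank, so that this spread holds no difference between tanks. Plots were made in Python 3.11.15 using matplotlib 3.10.9.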

Additional observations from a re-analysis of the deposited data

Results flagged for a closer look

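Among the 24 sets of values examined for a gonad that stood far from the others of its group, 7 had one, where chance gives about 1 in 20. Several of these are measures of the same array. F7 stood apart from the other F arrays in the SD of its difference from the mean of the others (0.738), in its number of probes at least 2-fold above (1100) and below (1004) that mean, and in its distance from it (114.8). F7 had 223 probes at least 8-fold above the mean of the other F arrays, against 0 to 48 on each of the other F arrays, and without F7 the number of calls of FS vs. F was 5004.

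F3 stood above the other F arrays at both named probes that rose, with 9.12 at CUST_3784_PI415922062 and 12.59 at CUST_6479_PI415922062. At the 35 probes at least 8-fold higher in FS, the median change of F3 from the mean of the other F arrays was 1.55, against -0.38 to -0.19 on the other F arrays. FS5 stood above the other FS arrays at CUST_14589_PI416070213, with 10.12.

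In the test of the difference itself, the age change of FS minus F was called different from that of SS minus S at 108 probes (0.446%). From that of SF minus S it was called different at 1 probe (0.00413%). As described above, these counts rested on single arrays.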

How the results depend on the processing

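The distance between mean profiles (121.2 to 278.1 over its alternatives) and the difference in position on the age axis (0.596 to 0.894) had an exact permutation p under 0.05 in each alternative run. For the distance the largest p of this test was 0.0278, without FS1, FS2 and FS4. These were set apart by their own values, and leaving them out leaves few divisions. The direction of each named probe was the same wherever it was tested. Leaving out arrays could not change it, since the probes were chosen with groups that did not overlap. The filter on probes well above background in both groups dropped CUST_3784_PI415922062 and CUST_4498_PI415922062. The count of calls in FS vs. F, 5082, was 8092 with the processed signal, 829 with median centring, 9304 with array weights, which gave FS3 and FS5 the lowest weights (0.24 each), 10263 with no fold threshold and an adjusted p under 0.05, 2356 without FS1, FS2 and FS4, and 8221 without FS3 and FS5. The replicate numbers did not pair the samples (correlations of deviations from -0.36 to 0.11), and with the number as a replicate block, where F6 and F7 have no partner, the count was 1807, and CUST_6479_PI415922062 was no longer called (change 3.92, adjusted p = 0.025). It was 4858 with slide as a random block. Probes whose groups did not overlap, 5631 of 24200, were 1567 with median centring and 3611 of the 14400 probes kept as well above background. The count of 3611 was thus taken over fewer probes, and by itself shows no loss. The number was 8986 without FS1, FS2 and FS4, and 12139 without FS3 and FS5, which leave fewer arrays to overlap. The contrast (FS minus F) minus (SS minus S), 108 calls, gave 58 with the processed signal and 3 with median centring. It gave 47 among probes well above background, a set whose size for this contrast is not given here. With all 6 groups in 1 fit it gave 858, and with array weights 6780. Without FS1, FS2 and FS4 it gave 5, and without FS3 and FS5 it gave 5238. The contrast (FS minus F) minus (SF minus S), 1 call, gave 0 with the processed signal, with normexp on the foreground alone and without FS1, FS2 and FS4, 71 with median centring, 185 with all 6 groups in 1 fit, 6310 with array weights and 5250 without FS3 and FS5. The share of targets with probes of 1 sign was 96.8% where at least 1 probe was called. Without 1 array, the calls ranged from 3701 to 6289, the distance from 133.9 to 156.5 (largest exact permutation p = 0.00303), the probes that did not overlap from 5844 to 7052, the contrast with SS minus S from 24 to 1784 and that with SF minus S from 0 to 1366. Where no cause is given above, the cause was not tested. Dim probes limit what could be called, above all in F, where as few as 43.2% of spots were well above background.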
